A study of Homo sapiens with 12 samples.

Results

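The comparison is between PDE12-/- cells that expressed wild-type PDE12 and PDE12-/- cells that expressed PDE12 with the E351A substitution, each for 24 hr, read by MPAT-Seq at the 3' ends of all 22 mt-tRNAs. The 2 libraries were chosen by their labels from 12 samples in the series, and every mt-tRNA in them is described. The cells were Flp-In T-REx HEK293T cells, a human embryonic kidney line, at passages 10 to 15. Their PDE12 gene had been disrupted at its first exon with zinc-finger nucleases and single cells had been cloned. Which PDE12-/- clone carried each transgene is not given in the sources used here. The transgenes, each with a FLAG and Strep tag, were stably integrated and induced with doxycycline. E351A replaces a glutamate thought to hold the catalytic magnesium, and the mutant has strongly reduced activity. The same assay on the knockout without a transgene and on PDE12+/+ cells, 1 library each, is given as background.

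PDE12 is a 3' to 5' exoribonuclease of the mitochondrial matrix that removes adenosines. Human mt-tRNAs are cut out of long transcripts of mitochondrial DNA at a nucleotide called the discriminator base, to which the enzyme TRNT1 adds C, C and A. An amino acid can be attached to the finished CCA end only, and the poly(A) polymerase mtPAP can add adenosines to the 3' ends of mitochondrial RNAs.

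MPAT-Seq reads these 3' ends base by base. The RNA is joined at its end to a linker, PCR is run from a primer within the mt-tRNA to that linker, and the read runs through whatever lies between. In the notation used here the discriminator base is position 0, the first C, second C and A of CCA are +1, +2 and +3, and an extension starts at +4. The deposited tables count the reads that cover each position and the base read there. Reverse transcription has to pass modified bases of the mt-tRNA, and per the study this can favour molecules without those modifications over mature ones. The percentages are therefore of reads and may differ from those of molecules in the cell, which was not tested. The last 24 bases of 8 mt-tRNA genes are shown because their ends behaved differently in the comparison, the first 4 being ones whose incomplete reads with wild-type PDE12 stopped most often at the discriminator base, and the other 4 most often at the second C. The capital marks the discriminator base, and CCA is not encoded in the genes. Sequences and coordinates are those of the mitochondrial genome of GRCh38 (16569 nt) with genes from GENCODE release 44.
MT-TK: agaaccaacacctctttacagtgA
MT-TG: tttgacaacattcaaaaaagagtA
MT-TL2: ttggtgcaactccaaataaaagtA
MT-TH: gaggcttacgaccccttatttacC
MT-TM: gttggttatacccttcccgtactA
MT-TC: gcagcttcaaacctgccggggctT
MT-TQ: tgggttcgattctcatagtcctaG
MT-TT: gatgaaaacctttttccaaggacA
MT-TK (mt-tRNA Lys) lies at 8295 to 8364 of chromosome M on the + strand, MT-TG (Gly) at 9991 to 10058, MT-TL2 (Leu CUN) at 12266 to 12336, MT-TH (His) at 12138 to 12206, MT-TM (Met) at 4402 to 4469 and MT-TT (Thr) at 15888 to 15953, all on the + strand. MT-TC (Cys, 5761 to 5826) and MT-TQ (Gln, 4329 to 4400) are on the - strand. Each is a tRNA gene without introns or UTRs. The base that the tables print for position 0 equalled the last base of the gene for 22 of 22, and it is A for 16 of them, G for 4, C for 1 and T for 1.

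Over the 22 mt-tRNAs the library with wild-type PDE12 held 516410 reads at the discriminator base (509 to 77528 per mt-tRNA) and that with E351A held 782111 (1538 to 99232). With 1 library per condition no difference has a replicate check. Each value is given with its 95% Wilson interval, or for a difference its Newcombe interval. These cover the counting of reads alone, or of bases for the adenine share of extensions. The reads carry no molecular identifiers, so amplification is not covered. The comparison is of libraries, and effects of clone, transgene integration, induction level or amplification cannot be told apart from that of the catalytic residue. The levels of the 2 PDE12 proteins were not analysed here.

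Extension past the CCA positions was far more frequent with E351A than with wild-type PDE12. The percentage extended is the reads at +4 divided by the reads at +3. Its median over the 22 mt-tRNAs was 59.7% with E351A, ranging from 16.9% to 97.0%, and 6.98% with wild-type PDE12, ranging from 1.06% to 87.2%. The median difference was 40.8 percentage points. With E351A the percentage was higher for 21 of 22 mt-tRNAs, each with Wilson intervals apart (95.5% of the features tested, which are the 22 members themselves), and 20 of these differed by at least 10 percentage points. Only MT-TI was lower with E351A, also with intervals apart (4.55%). Background medians were 34.5% in PDE12-/- and 12.8% in PDE12+/+. PDE12-/- exceeded E351A for MT-TA (71.8% against 41.1%), MT-TD (50.5% against 33.0%) and MT-TK, and lay below it for the others.

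mt-tRNA Thr showed the largest difference of the 22. MT-TT was extended in 9.04% of 7986 reads with wild-type PDE12 (8.43 to 9.69) and in 88.4% of 21537 reads with E351A (87.9 to 88.8), which is 79.3 percentage points more (78.6 to 80.1). Its background values were 42.6% in PDE12-/- and 18.9% in PDE12+/+, so E351A stood above both and wild-type PDE12 below both.

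MT-TM, which serves both initiator and elongator methionine codons, was extended in 7.08% of reads with wild-type PDE12 (6.72 to 7.46) and in 76.8% with E351A (76.4 to 77.1). The library with wild-type PDE12 was close to PDE12+/+ (5.96%), whereas E351A was far above the knockout without a transgene (17.4%).

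MT-TK was extended in 19.9% of reads with wild-type PDE12 and in 85.6% with E351A, a difference of 65.7 percentage points (65.3 to 66.2). Here E351A lay below PDE12-/- (91.1%), and wild-type PDE12 lay above PDE12+/+ (8.02%).

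MT-TF (Phe) was extended in 14.0% of reads with wild-type PDE12 (13.1 to 15.0) and in 79.6% with E351A (79.0 to 80.1). Its difference of 65.5 percentage points could not be told from that of MT-TK, since their intervals overlap (64.4 to 66.6 for MT-TF).

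For MT-TG the percentage with wild-type PDE12 was 2.93% (2.75 to 3.12), next to 2.87% in PDE12+/+, and that with E351A was 67.4% (67.1 to 67.7), while PDE12-/- was at 11.3%. MT-TH reached the highest percentage of the 22 with E351A, 97.0% of 98963 reads, and was at 34.6% with wild-type PDE12, 89.9% in PDE12-/- and 3.11% in PDE12+/+. The difference was 62.4 percentage points (61.9 to 62.9). Both MT-TH and MT-TK thus had a higher percentage extended with wild-type PDE12 than in PDE12+/+. This was not particular to them. It also held for others, among them MT-TS2 (87.2% against 56.1%) and MT-TY (64.2% against 33.8%), while others, such as MT-TT, were lower.

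**Figure D1:**
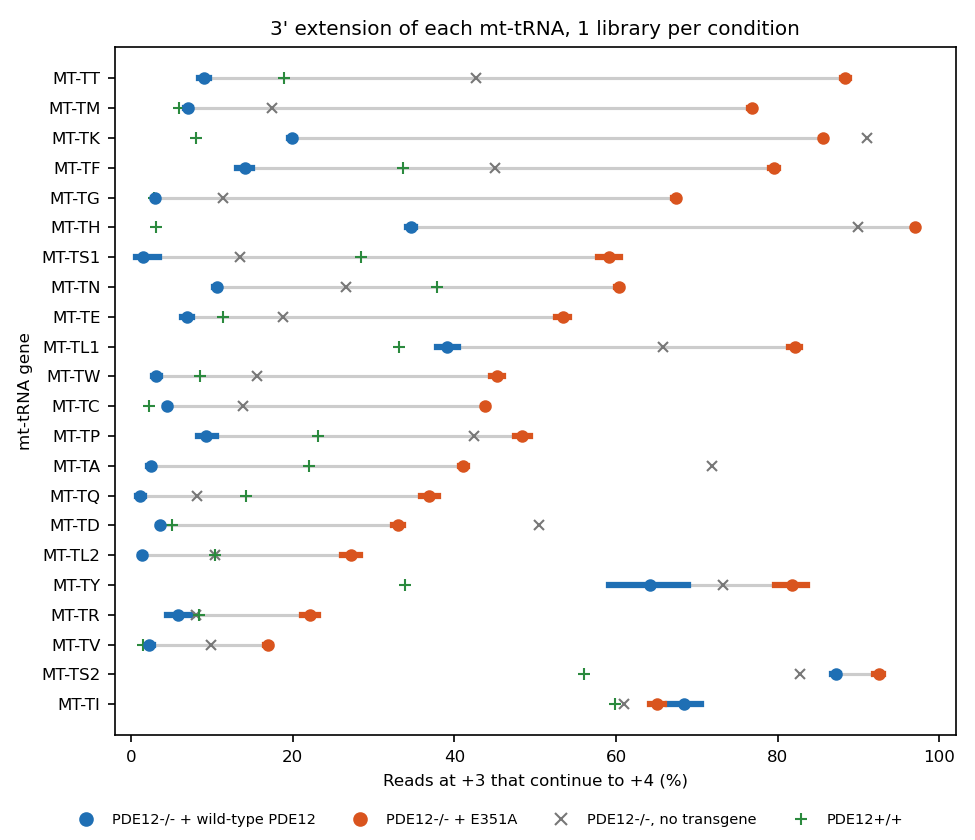
Percentage of reads at +3 that continue to +4 (x axis) for each of the 22 mt-tRNA genes (y axis, ordered by the difference). Circles are the libraries with wild-type PDE12 (blue) and E351A (orange), thick bars their 95% Wilson intervals, and crosses and plus signs the libraries of PDE12-/- without a transgene and PDE12+/+. The orange circle is right of the blue one for 21 mt-tRNAs, from 88.4% against 9.04% for MT-TT at the top to 92.5% against 87.2% for MT-TS2, and left of it for MT-TI.

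The order of the mt-tRNAs was partly shared between the libraries. The rank correlation across the 22 between the percentages with wild-type PDE12 and with E351A was 0.758, between E351A and PDE12-/- 0.712, and between wild-type PDE12 and PDE12+/+ 0.499. These are descriptions, since the mt-tRNAs of a library share its preparation and amplification.

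The smallest differences were of 2 kinds. MT-TV (Val) and MT-TR (Arg) were seldom extended in either library. MT-TV was at 2.24% with wild-type PDE12 (1.84 to 2.72), against 16.9% when E351A was expressed (16.5 to 17.3), the lowest of the 22 with E351A. MT-TR was at 5.78% (4.40 to 7.56) and 22.1% (21.1 to 23.1).

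By contrast MT-TS2 (Ser AGY), MT-TI (Ile) and MT-TY (Tyr) were mostly extended in both libraries. MT-TS2, the mt-tRNA that lacks a D-arm, was extended in 87.2% of reads with wild-type PDE12 (86.8 to 87.6) and in 92.5% with E351A (91.9 to 93.1). MT-TI was at 68.5% (66.4 to 70.4) and 65.1% (64.2 to 66.0), which is 3.37 percentage points lower with E351A (1.12 to 5.55). When only A at +4 was counted, MT-TI was higher with E351A by 6.08 percentage points, and over the reads at the discriminator base by 14.0.

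MT-TY rested on few reads with wild-type PDE12, 64.2% of 363 (59.1 to 68.9), and was at 81.7% of 1439 with E351A (79.6 to 83.6). The E351A table of MT-TY starts a base earlier than the others, and its positions were moved by 1 to set the discriminator base at 0.

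The other 11 mt-tRNAs lay between these, all higher with E351A with intervals apart. MT-TE (Glu) was at 6.88% with wild-type PDE12 (6.31 to 7.50) and at 53.4% with E351A (52.5 to 54.2). MT-TS1 (Ser UCN) was extended in 5 of 336 reads with wild-type PDE12, which is 1.49% (0.637 to 3.44), and in 59.1% with E351A. MT-TL1 (Leu UUR) was at 39.1% and 82.1%, MT-TN (Asn) at 10.6% and 60.4%, MT-TW (Trp) at 3.12% and 45.2%, and MT-TC at 4.44% and 43.8%. MT-TP (Pro) was at 9.32% and 48.4%, MT-TA (Ala) at 2.40% and 41.1%, MT-TQ at 1.06% and 36.9%, MT-TD (Asp) at 3.51% and 33.0%, and MT-TL2 at 1.39% and 27.2%. Within this set the values with wild-type PDE12 were under 11% for all but MT-TL1.

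The pair of leucine mt-tRNAs differed from each other in both libraries. MT-TL1 exceeded MT-TL2 when PDE12 was wild-type (intervals 37.8 to 40.4 against 1.10 to 1.75) and when it was E351A (81.4 to 82.8 against 26.1 to 28.3). In the serine pair MT-TS2 exceeded MT-TS1 in both.

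The opposite difference was seen inside CCA. With wild-type PDE12 many reads stopped before +3, the position of the final A. The percentage incomplete is the share of reads at the discriminator base that do not reach +3, whatever bases are read. Its median was 37.4% with wild-type PDE12, from 12.96% for MT-TD to 60.2% for MT-TC, and 3.59% with E351A, from 0.271% for MT-TH to 17.2% for MT-TS1. It was higher with wild-type PDE12 for 22 of 22 mt-tRNAs with intervals apart (100% of the 22 tested), and for 21 by at least 10 percentage points. The median difference was 33.2 percentage points. Extended reads count in the denominator and cannot be incomplete, so more extension with E351A lowers its percentage incomplete. The same holds for the shares of each kind of incomplete end given below. The share among reads without an extension was not computed. Background medians were 3.86% in PDE12-/- and 7.38% in PDE12+/+, so the library with wild-type PDE12 stood above both for most mt-tRNAs. MT-TQ (66.5%) and MT-TI (39.0%) were higher still in PDE12-/-, and MT-TY (32.5%) in PDE12+/+.

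The largest differences were those of the cysteine and glycine mt-tRNAs. MT-TC was incomplete in 60.2% of 43005 reads with wild-type PDE12 (59.8 to 60.7) and in 1.33% of 92497 with E351A (1.26 to 1.41), a difference of 58.9 percentage points (58.4 to 59.4). With wild-type PDE12 29.8% of the MT-TC reads ended at +2. Of the 29910 that covered +2, 31.2% had adenine there, while adenine at +1 was at 0.672%. Whether some of the ends at +2 carry a whole CCA was not tested. MT-TG was incomplete in 57.9% (57.6 to 58.3) and 1.72% (1.64 to 1.81). MT-TR followed, with 57.6% (55.4 to 59.7) and 7.00% (6.43 to 7.63).

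The 3 smallest differences were those of MT-TD, MT-TW and MT-TS2. MT-TD was incomplete in 12.96% of reads with wild-type PDE12 (12.7 to 13.3) and in 8.84% with E351A (8.50 to 9.20), with extended reads in the denominator. MT-TW was at 14.6% and 2.41%, and MT-TS2 at 15.0% and 2.41%. MT-TS2 reads had adenine at +1 in 93.3% and at +2 in 93.8% with wild-type PDE12, against 27.0% and 37.2% with E351A. For MT-TS2 a read that reaches +3 is thus mostly not one with a complete CCA when PDE12 is wild-type. Extended reads made up 3.06% of the MT-TD reads at the discriminator base with wild-type PDE12 and 30.1% with E351A. For MT-TS1 these shares were 0.962% and 48.9%. Reads ending at +3 were also a smaller share with E351A, at 84.0% and 61.1% for MT-TD and 63.7% and 33.9% for MT-TS1. The lower percentage incomplete of these mt-tRNAs thus came without a higher share ending at +3. For 6 mt-tRNAs, among them MT-TC (38.0% and 55.4%), the share ending at +3 was higher with E351A. How much of the differences in incomplete ends the extended reads account for was not tested.

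Among mt-tRNAs assayed one by one in the study, MT-TK was incomplete in 39.2% of reads with wild-type PDE12 (38.8 to 39.5), against 0.884% for E351A (0.825 to 0.947). MT-TM was at 51.2% and 3.55%, MT-TV at 52.5% and 7.02%, MT-TE at 38.7% and 2.75%, and MT-TH at 26.1% and 0.271%. MT-TY was at 28.7% of 509 reads (24.9 to 32.8) and 6.44% (5.32 to 7.78). If the E351A positions of MT-TY are left as printed, its percentage is 0.481 percentage points higher with E351A, so the direction for MT-TY rests on the shift.

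Of the others, MT-TL1 was incomplete in 50.9% of reads with wild-type PDE12 and 4.45% with E351A, MT-TQ in 48.7% and 13.7%, and MT-TL2 in 47.9% and 6.06%. MT-TA was at 39.0% and 3.63%, MT-TN at 36.0% and 4.67%, MT-TS1 at 35.4% and 17.2%, and MT-TI at 35.3% and 10.5%. MT-TP was at 31.2% and 2.13%, MT-TF at 29.2% and 1.83%, and MT-TT at 16.8% and 0.448%. With E351A, only MT-TS1, MT-TQ and MT-TI of the 22 exceeded 10%.

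**Figure D2:**
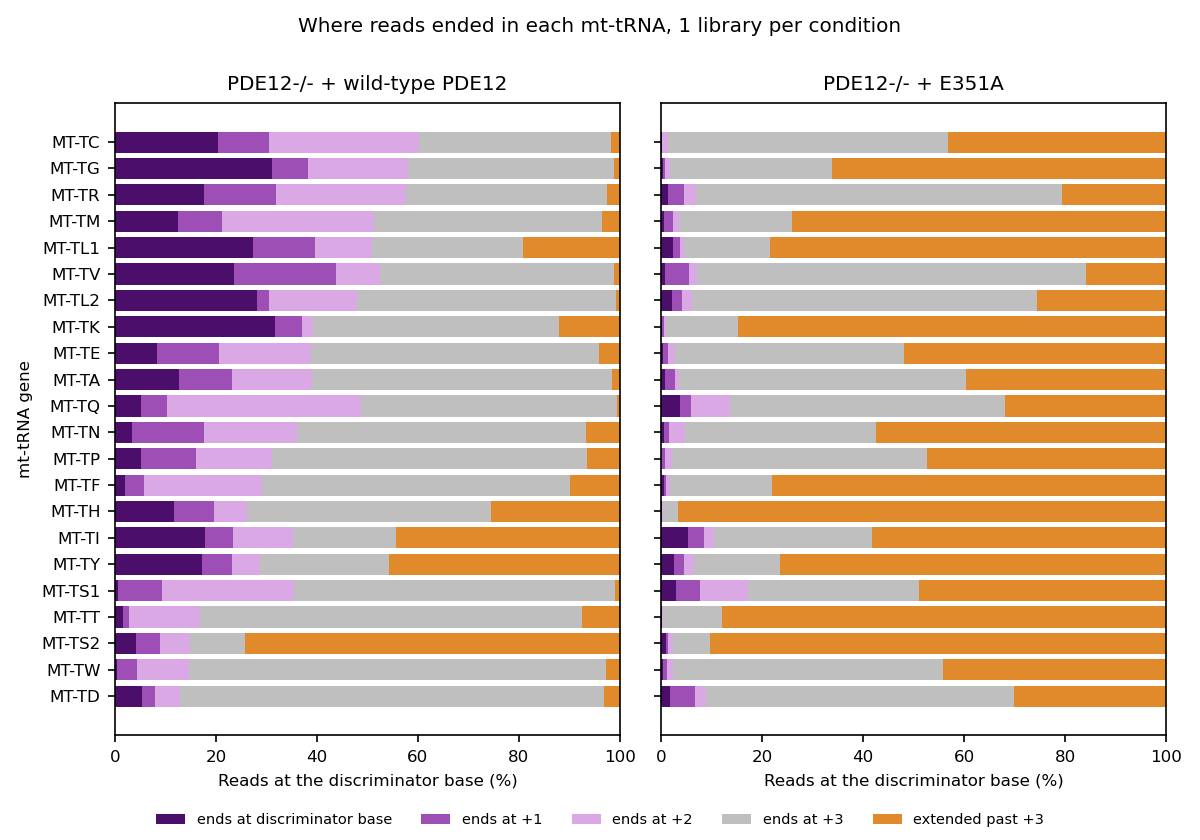
Share of the reads at the discriminator base (x axis) that end there, at +1, at +2, at +3 or after it, for each mt-tRNA gene (y axis, ordered by the difference in incomplete ends) with wild-type PDE12 (left) and E351A (right). The purple parts, the incomplete ends, span 12.96% to 60.2% on the left and 0.271% to 17.2% on the right, and the orange part, the extended reads, is wider on the right for 22 of 22.

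Averaged over the mt-tRNAs with equal weight, 13.1% of reads ended at the discriminator base with wild-type PDE12, 8.05% at the first C, 16.3% at the second C and 49.98% at +3, and 12.5% were extended. With E351A the averages were 1.26%, 1.74%, 1.97%, 38.3% and 56.7%. All 3 kinds of incomplete end were therefore rarer with E351A, and the share ending at +3 was the one that differed least in relative terms.

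The place where reads stopped differed among the mt-tRNAs. With wild-type PDE12, incomplete reads ended most often at the second C for 13 mt-tRNAs and at the discriminator base for the other 9, and for none most often at the first C. For MT-TK 81.1% of the incomplete reads stopped at the first step, with 31.8% of all reads ending at the discriminator base (31.4 to 32.1) against 0.171% with E351A, 5.28% at the first C and 2.12% at the second. MT-TG ended at the discriminator base in 31.2% and at the second C in 19.7% of reads, and MT-TL2 in 28.1% and 17.5%, with few reads at the first C in both (7.02% and 2.32%).

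MT-TQ, MT-TM and MT-TC lay on the other side. Reads that ended at +2 made up 38.5% of MT-TQ (37.1 to 40.0), 30.02% of MT-TM (29.6 to 30.5) and 29.8% of MT-TC (29.3 to 30.2) with wild-type PDE12, and 7.69%, 1.14% and 1.21% with E351A. MT-TT ended there in 14.1% and at the discriminator base in 1.63%. MT-TV was the mt-tRNA with the largest share of the 22 at the first C, 20.3% (19.5 to 21.1).

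Reads ending at the second C were more frequent with wild-type PDE12 for 22 of 22 mt-tRNAs with intervals apart (100%). For ends at the discriminator base this held for 20 (90.9%), with MT-TW not apart and MT-TS1 higher with E351A (4.55% of the 22), where it was 2.91% against 0.577%. For ends at the first C it also held for 20 (90.9%), with MT-TL2 not apart and MT-TD higher with E351A (5.09% against 2.70%).

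By discriminator base, the 4 mt-tRNAs with G (MT-TN, MT-TQ, MT-TS1 and MT-TW) ended at it in 0.425% to 5.14% of reads with wild-type PDE12, and the 16 with A in 1.63% to 31.8%, so the ranges overlap at their lower ends. The medians were 2.01% and 15.0%. Apart from the E351A table of MT-TY the tables start at the discriminator base, so reads that end inside the gene were not counted. There, 2071 reads covered the preceding base and 1538 the discriminator base, so 25.7% ended before it (23.9 to 27.7). The difference between these groups was not tested.

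The share of incomplete reads with wild-type PDE12 went with neither the share incomplete with E351A (rank correlation 0.0977 across the 22 mt-tRNAs) nor the gain of extension with E351A (0.0186). MT-TC, first in the difference in incomplete ends, was twelfth in the difference in extension, while MT-TT, first in extension, was among the 4 smallest in incomplete ends. As before, the points share their libraries.

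**Figure D3:**
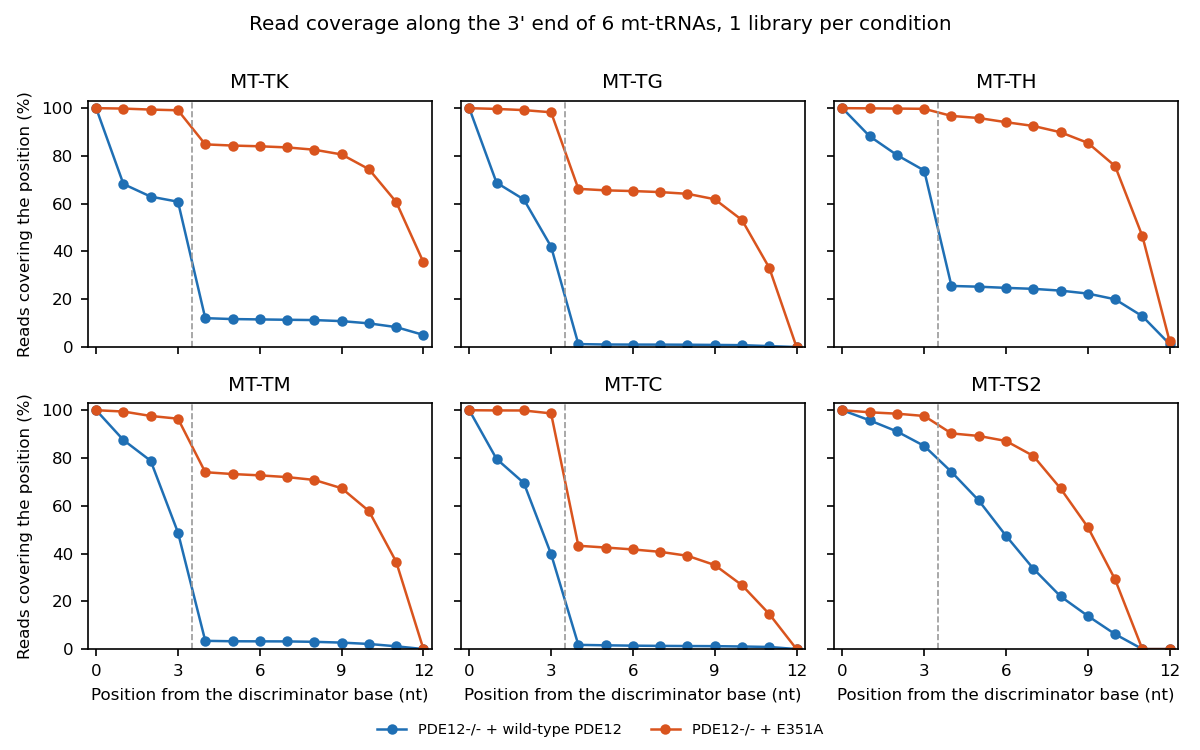
Reads covering each position as a percentage of those at the discriminator base (y axis) against the position in nt (x axis) for 6 mt-tRNAs with wild-type PDE12 (blue) and E351A (orange), 1 library each. The dashed line separates CCA from the extension. Blue curves drop within CCA, to 60.8% at +3 for MT-TK and 39.8% for MT-TC, where the orange ones stay at 99.1% and 98.7%. From +3 to +4 the orange curves drop by differing amounts, for MT-TC to 43.3%. They then stay nearly level to about +9 and fall, while that of MT-TS2 falls from +6 on.

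Reads that ended exactly at +3 did not differ in 1 direction. They are counted by position whatever their bases, so the share is not one of intact CCA. Their share of the reads at the discriminator base had a median of 49.7% with wild-type PDE12 and 35.8% with E351A, against 56.9% in PDE12-/- and 80.9% in PDE12+/+. It was higher with wild-type PDE12 for 16 of 22 mt-tRNAs (72.7%) and higher with E351A for 6 (27.3%), all with intervals apart.

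MT-TT, MT-TH and MT-TF had the largest excess of ends at +3 with wild-type PDE12. MT-TT ended at +3 in 75.7% of reads with wild-type PDE12 (74.8 to 76.5) and in 11.6% with E351A (11.2 to 12.0). MT-TH was at 48.3% and 2.98%, MT-TF at 60.9% and 20.1%, and MT-TK at 48.7% and 14.3%.

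The 6 with more ends at +3 with E351A were MT-TR, MT-TV, MT-TC, MT-TL2, MT-TI and MT-TQ. MT-TR ended there in 40.0% of reads with wild-type PDE12 (37.8 to 42.1) and in 72.4% with E351A (71.4 to 73.5), MT-TV in 46.4% and 77.2%, and MT-TC in 38.0% and 55.4%. Of these 6, all but MT-TI and MT-TC were under 37% extended with E351A, and all were above 35% incomplete with wild-type PDE12. Over the reads at +3 alone, which leave out the incomplete ends, MT-TR, MT-TV, MT-TC, MT-TL2 and MT-TQ were higher with wild-type PDE12. That share is the complement of the percentage extended, so it repeats the extension result and adds no separate evidence.

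A read that covers or ends at +3 need not carry CCA. Adenine in place of the second C was read in up to 93.8% of reads, for MT-TS2 with wild-type PDE12. Of the 22 mt-tRNAs, 11 had more adenine at +2 with wild-type PDE12 (50% of those tested) and 10 had more with E351A (45.5%), with intervals apart. By at least 10 percentage points these were 4 and 5. For 4 of the 6 with more ends at +3 with E351A it was frequent in a library, at 30.7% for MT-TQ, 46.7% for MT-TI and 38.3% for MT-TC with E351A and 24.8% for MT-TR with wild-type PDE12. The median difference was 0.576 percentage points, so the adenine at +2 had no common direction.

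With wild-type PDE12, MT-TS2 had adenine at +2 in 93.8% of 24159 reads (93.5 to 94.1) and with E351A in 37.2% of 7794 (36.1 to 38.2). MT-TY was at 49.9% (44.9 to 54.8) and 11.4% (9.86 to 13.1), MT-TR at 24.8% and 0.998%, and MT-TL1 at 23.7% and 2.00%. For MT-TS2 adenine at +1 was as frequent as at +2 with wild-type PDE12 (93.3%), so most of its reads counted as extended had adenine directly after the discriminator base. The table gives bases position by position and does not link them within a read.

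The opposite was seen by at least 10 percentage points for MT-TS1, MT-TQ and MT-TN, which have G as the discriminator base, and for MT-TI and MT-TL2, which have A. MT-TW, the other with G, was also higher with E351A but at 0.824% and 2.35%. MT-TS1 had adenine at +2 in 0.424% of reads with wild-type PDE12 (0.116 to 1.53) and in 55.3% with E351A (54.0 to 56.6), MT-TQ in 0.898% and 30.7%, and MT-TN in 9.19% and 34.9%. In MT-TS1 and MT-TQ adenine was also read at the discriminator base itself, where 59.7% and 31.0% of reads had A with E351A and 1.73% and 0.616% with wild-type PDE12. At +2 MT-TI was at 29.0% and 46.7% and MT-TL2 at 0.183% and 10.7%.

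Bases other than that of the gene were also read at position 0 with wild-type PDE12. The counts do not show whether a base was replaced or the reads were placed out of register. MT-TC, whose gene has T there, read A in 27.9%, C in 38.3% and T in 33.7% of reads, against 1.02%, 39.5% and 59.4% with E351A. MT-TR, with A in the gene, read C in 22.8%. For MT-TC, C at the discriminator base was thus nearly as frequent with wild-type PDE12 as with E351A, while A was seen mainly with wild-type PDE12.

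**Figure D4:**
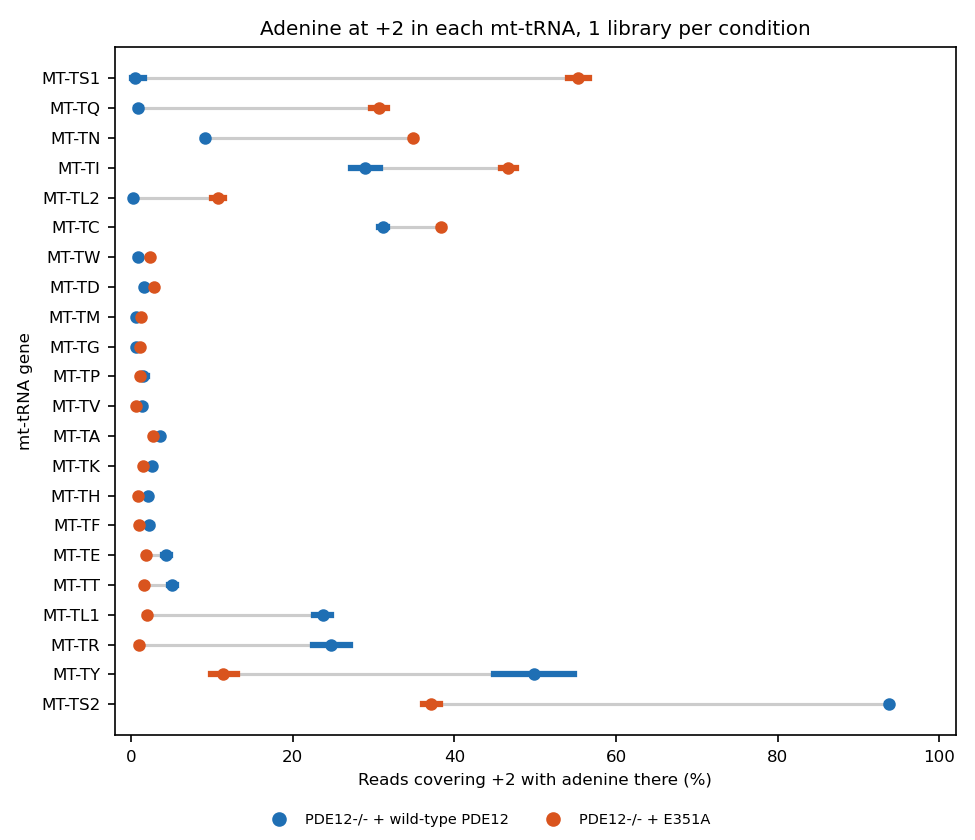
Percentage of reads covering +2, the second C of CCA, that have adenine there (x axis) for each mt-tRNA gene (y axis, ordered by the difference) with wild-type PDE12 (blue) and E351A (orange), with 95% Wilson intervals as thick bars. From MT-TW to MT-TT the values lie at or below 5.08% in both libraries, MT-TS1 to MT-TC are higher with E351A, and MT-TL1 to MT-TS2 are higher with wild-type PDE12.

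Extension of reads with adenine at +2 may not be extension past CCA. Adenine at +1 was rare in MT-TC (0.672% with wild-type PDE12 and 0.483% with E351A) and MT-TR (3.77% and 4.98%). The counts do not show whether their reads with adenine at +2 carry CCA at other positions. The percentage extended among reads without adenine at +2 was bounded. As many of the extended reads as the counts allow, or as few, were set down to reads with adenine there. Under these bounds 17 mt-tRNAs stayed higher with E351A, 0 were higher with wild-type PDE12, and 5 were undecided, MT-TI, MT-TC, MT-TY, MT-TS1 and MT-TS2. For the 13 mt-tRNAs with adenine at +2 in at most 20% of reads in both libraries, the median difference was 46.5 percentage points, and 13 were higher with E351A.

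Most bases read in the extensions were adenine in both libraries. A made up a median of 97.6% of the bases from +4 on with E351A, from 91.7% for MT-TR to 99.6% for MT-TS2, and 93.7% with wild-type PDE12, from 67.6% for MT-TR to 99.8% for MT-TS2. The share was higher with E351A for 18 mt-tRNAs with intervals apart (81.8%) and lower for 2 (9.09%), MT-TS2 and MT-TH. These intervals count bases, and a read can hold several that are not independent, so they are too narrow. With wild-type PDE12 the 111 bases of MT-TR came from 49 extended reads, and the 30 of MT-TS1 from 5.

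Bases other than A were read at +4 in some mt-tRNAs. MT-TH had C at +4 in 39.0% of 13812 reads with wild-type PDE12 (38.2 to 39.8) and in 45.9% of 96009 with E351A (45.5 to 46.2). Its discriminator base is also C. MT-TT had C at +4 in 21.9% (19.02 to 25.04) and 21.1% (20.5 to 21.6), with overlapping intervals. MT-TF had C there in 0 of 774 reads with wild-type PDE12, which allows a share of up to 0.388%, and in 14.4% with E351A (13.9 to 15.0). For MT-TI it was the other way round, 27.7% and 14.7%. At the next position, +5, MT-TH had C in 11.8% and 7.72%, less than at +4, while MT-TC with E351A had C in 5.89% of 39318 reads at +5 against 2.41% at +4. MT-TR with wild-type PDE12 had C at +5 in 92.3% of only 13 reads, against 24.5% at +4.

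An extended read also carried a somewhat longer extension with E351A. Counted from +4 to +12, so at most 9 nt, the mean extension was longer with E351A for 17 mt-tRNAs, of which 16 had a counting interval of the difference above 0 (72.7%), and shorter for 5, of which 3 had one below 0 (13.6%). The median difference was 0.672 nt. Among the 17 with at least 100 extended reads in both libraries, 15 were longer with E351A, with a median difference of 0.697 nt.

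MT-TT extensions averaged 4.15 nt with wild-type PDE12 and 6.71 nt with E351A, a difference of 2.56 nt (2.38 to 2.74). Those of MT-TS2 averaged 3.50 nt and 5.48 nt, and those of MT-TD 4.15 nt and 5.77 nt. MT-TS2 reads had adenine already at the first C in 93.3% with wild-type PDE12 and in 27.0% with E351A. Adenines at the CCA positions are left out of these lengths. Whether the whole adenine runs of MT-TS2, counted from the discriminator base, differ in length was not tested. MT-TG extensions averaged 5.97 nt and 7.16 nt. In MT-TL2, 92.6% of the 68 extended reads with wild-type PDE12 carried a single added base, against 21.7% with E351A.

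For MT-TH and MT-TK the measured length differed little. MT-TH extensions averaged 7.04 nt and 7.02 nt, a difference whose interval spans 0, and MT-TK extensions 7.63 nt and 7.91 nt. Extended reads that reached +9 or beyond made up 89.7% with wild-type PDE12 and 95.03% with E351A for MT-TK. As 41.9% and 41.8% of the extended MT-TK reads reached +12, where counting ends, longer extensions of MT-TK could not be compared. With wild-type PDE12, MT-TL1 was extended in a larger percentage of its reads at +3 than MT-TH (39.1% against 34.6%). MT-TL1 extensions averaged 5.05 nt and 5.74 nt, a difference of 0.697 nt (0.577 to 0.817), and MT-TF differed by 1.12 nt (0.929 to 1.32).

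MT-TA and MT-TV went the other way. MT-TA extensions averaged 8.24 nt over 267 reads with wild-type PDE12 and 5.54 nt over 20203 with E351A, 2.70 nt shorter with E351A (2.49 to 2.92). MT-TV extensions averaged 5.31 nt over 98 reads and 3.57 nt. MT-TS1 was the third with an interval below 0, on 5 reads of equal length with wild-type PDE12, which gives no measure of spread.

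**Figure D5:**
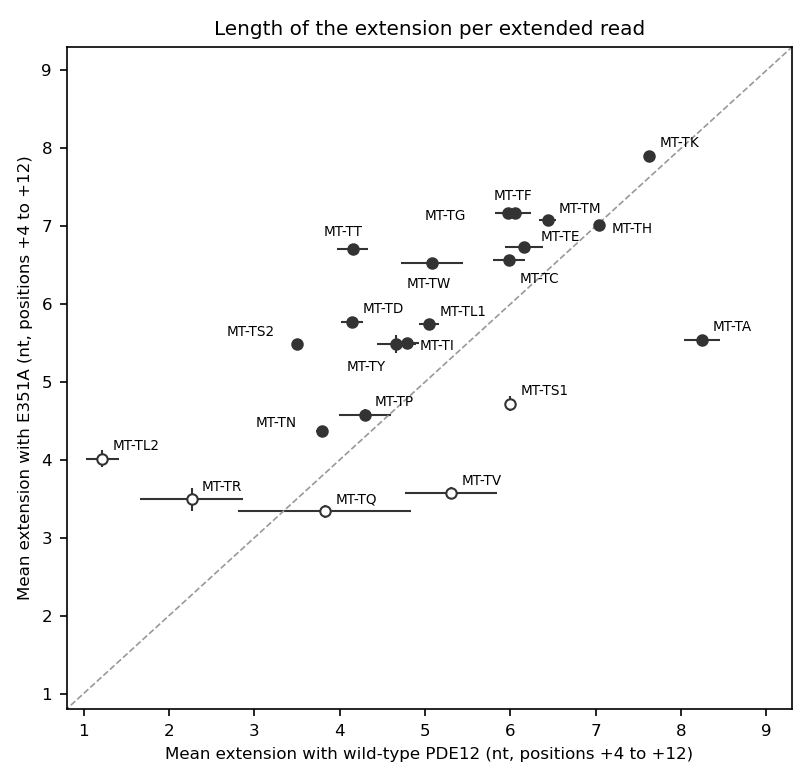
Mean length of the extension per extended read in nt, counted over +4 to +12, with wild-type PDE12 (x axis) and E351A (y axis) for the 22 mt-tRNAs, with 95% counting intervals. Open circles have under 100 extended reads with wild-type PDE12, and the dashed line marks equal length. Of the 22, 17 lie above the line, and MT-TA (8.24 nt against 5.54 nt) lies furthest below it.

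These lengths have a ceiling. Reads were aligned to uncalled positions after each gene. If the aligner's default was kept, at most 0.15 of a read may be uncalled. For reads that span the whole gene this ends at +10 to +13. Reads without the primer in the mt-tRNA would hold 34 to 50 nt of the gene, and their limit would come earlier. The last position that held over 1% of the extended reads was at the whole-gene ceiling for 14 mt-tRNAs with wild-type PDE12 and 16 with E351A, and beyond it for 0. Longer extensions would then be absent from the tables, and what they would add to the percentage extended or to the difference in length was not tested.

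By position in the genome, the 14 genes on the + strand and the 8 on the - strand had median differences in percentage extended of 42.6 and 39.2 percentage points, and in percentage incomplete of 32.8 and 33.2. The 3' end of 14 mt-tRNAs touches or overlaps the next gene, taken on either strand. The neighbour need not lie in the same transcript, as MT-TI and MT-TQ overlap from opposite strands. For these 14 the median difference in extension was 32.6 percentage points, from -3.37 for MT-TI to 69.7 for MT-TM. For the 8 followed by a gap it was 42.6, from 38.7 to 79.3. The ranges of these groups overlap.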

How the data were processed

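MPAT-Seq tables of PDE12-/- cells expressing wild-type PDE12 or E351A were used, with those of PDE12-/- and PDE12+/+ as background. The mtPAP and RNA-seq samples were not used. Per the study's methods, a linker was ligated to total RNA, each mt-tRNA was amplified separately, and products were pooled. The labels name circularization instead. Primers were trimmed by the authors with cutadapt, and Bowtie2 placed reads above 20 nt on GRCh38 to which 30 uncalled positions had been added at mt-tRNA 3' ends. Tool versions are not given in the sources used here. The deposited values are raw whole-number counts of reads per position and base, without normalization.

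Percentages, Wilson and Newcombe 95% intervals, lengths and bounds were computed in Python 3.11.15 with NumPy 2.4.6 and SciPy 1.17.1, checked on simulated data, and plotted with Matplotlib 3.10.9. A count of 0 was taken to allow 3 reads. The table of mt-tRNA Ser UCN is printed as MT-TS and was assigned by its length of 69 nt. The E351A table of MT-TY was moved by 1 base, the PDE12-/- count of C in MT-TQ was set to what A, G and T left of the total, and the PDE12+/+ table of MT-TD, printed as MT-TT at position 68, was assigned by position.

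All mt-tRNAs are named. Full values are given for the 5 largest and 5 smallest differences in extension, the 3 largest and 3 smallest in incomplete CCA and the 3 largest in adenine at the second C, for any opposite direction and for those assayed singly, beside others the counts turn on. The mt-tRNAs, measures and groups were chosen with earlier results of these data known. Alternatives were other denominators, positions and bases, minimum reads, minimum differences, equal depth and MT-TY as printed. Leaving out mt-tRNAs with adenine at the second C, and a minimum difference for that adenine, were chosen after seeing the data.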

Additional observations from a re-analysis of the deposited data

How the results depend on the processing

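Of 38 alternatives on counts and medians over the mt-tRNAs, 28 stayed within the counting interval or within 1.5 times the count. The median difference in percentage extended was 37.7 percentage points with only A at +4, 39.6 at +5, and 46.5 over the 13 mt-tRNAs with little adenine at the second C, of which 13 were higher with E351A. The median difference in incomplete ends was 25.9 when counted from +1, and 35.4 over those 13. Over the reads at +3, the median difference in ends at +3 was 40.8, which is that of the percentage extended, since the 2 shares are complements. With at least 10 percentage points, 4 mt-tRNAs had more adenine at the second C with wild-type PDE12 and 5 with E351A. The median difference in adenine was -0.307 at the first C.

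For single mt-tRNAs, 31 of 134 alternatives stayed within the counting interval, 95 moved in size alone and 8 reversed. MT-TI was 14.0 points higher with E351A over the reads at the discriminator base and 6.08 higher with only A at +4. The incomplete ends of MT-TY, as printed, gave -0.481. Ends at +3 over the reads at +3 were higher with wild-type PDE12 by 35.8 points for MT-TQ, 25.8 for MT-TL2, 14.7 for MT-TV, 39.4 for MT-TC and 16.3 for MT-TR. As complements of the percentage extended, these restate the extension differences, so their reversal followed from those. With 500 reads at +3 in both libraries 20 mt-tRNAs were left.

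No paired analysis was possible because each condition had 1 library and no test was run. Depth limits MT-TY and MT-TS1 most, with 363 and 336 reads at +3 with wild-type PDE12.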
